A study of Homo sapiens with 6 samples.

Results

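Cystatins and lysosomal cathepsins, the inhibitors and proteases of a shared proteolytic system, were followed in MDA-MB-231 cells, a human triple-negative breast cancer line. The 10 genes were the rows of the deposited count table named CST1, CST2, CST3, CST4, CST6, CSTB, CTSB, CTSD, CTSL and CTSZ, out of 58735 genes in the table. They were chosen by their measured levels and fold changes, PM2.5 against Control, in these same libraries. Their differences between the groups are therefore given as a description with a standard error and no p-value, and counts of them past a threshold stand only beside the share of all genes. RNA was sequenced from 6 libraries, 3 labelled Control and 3 labelled PM2.5, the second for exposure to airborne particulate matter (PM2.5). RNA was taken after 48 h. The labels give no genotype or added agent beyond the treatment, and neither the particle dose nor the vehicle of the controls is stated there. Every library comes from 1 cell line, and nothing says how separate the cultures of a group were, so p-values measure only the spread between these libraries. In bulk RNA, fewer cells of a type and less RNA per cell cannot be told apart.

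Cathepsins are proteases that are made as inactive precursors, carried to the lysosome largely by mannose 6-phosphate receptors and activated at acidic pH. Cathepsins B, L and Z are cysteine proteases, whereas cathepsin D is an aspartic protease that cystatins do not inhibit. Cystatins bind the active site of papain-like cysteine proteases: cystatin B stays inside the cell, while cystatins C, SN, SA, S and E/M are secreted. In breast and other carcinomas the pair is known for its part in the turnover of the matrix around tumour cells and in protein breakdown within lysosomes.

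Total counts ran from 31846136 to 34691009 per library. Of the MDA-MB-231 markers VIM, CD44, AXL, CAV1 and EGFR all 5 were detected, with summed levels of 4371 to 5005 CPM (counts scaled to library size, with TMM factors) in Control and 5117 to 5386 CPM in PM2.5. VIM and CD44 carried most of this sum, within which CAV1 rose 2.13-fold and EGFR fell 1.87-fold. Luminal markers summed to 4.10 to 7.16 CPM, nearly all of it GATA3, and ESR1 was at 0 in every library. Macrophage markers, of interest because macrophages are rich in cathepsins, summed to 0.817 to 1.70 CPM in Control and 1.21 to 1.52 CPM in PM2.5, with C1QA and C1QB at 0. Within that sum ITGAM averaged 0.243 CPM in Control and 0.713 CPM in PM2.5 (edgeR, adjusted p = 0.0386, up to 0.213 in the alternatives), CSF1R averaged 0.908 and 0.604 CPM, and CD163 had 4 to 10 counts in Control and 0 in PM2.5. The leukocyte markers PTPRC and CD3E were at 0 in every library. Endothelial markers summed to 47.7 to 57.97 CPM in Control and 66.03 to 69.9 CPM in PM2.5. PECAM1 and TIE1 carried nearly all of this sum, CDH5 had 4 counts in 1 PM2.5 library and none elsewhere, and the part of such cells in the results was not tested. HMOX1 and CYP1A1, which particles are known to induce, averaged 813 and 6.29 CPM in the libraries labelled Control. They averaged 51.3 and 2.73 CPM in those labelled PM2.5, so every direction here is that of the labels. An exchange of the labels would turn every direction and was not tested.

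The genes CST1, CST4, CST2 and CST3 sit side by side on the minus strand of chromosome 20, and the first 3 are close copies, which bears on how well counts can separate them. In GRCh38 CST3 (cystatin C, ENSG00000101439) spans 23626706 to 23638473, CST4 (cystatin S, ENSG00000101441) 23685640 to 23689040, CST1 (cystatin SN, ENSG00000170373) 23747553 to 23751268 and CST2 (cystatin SA, ENSG00000170369) 23823769 to 23826731. The coding sequences of CST1, CST2 and CST4, each 426 bases in 3 exons, were identical at 92.7% of positions for CST1 and CST4, 92.5% for CST2 and CST4 and 91.3% for CST1 and CST2. CST3 was 69.8% identical to CST1, CST6 53.5% and CSTB 44.1%, in alignments with gaps. Differences among the 3 copies were densest in exon 1, at 39 of its 228 coding bases, against 6 of 114 in exon 2 and 5 of 84 in exon 3.

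The longest coding run that CST1 and CST4 have in common, 152 bases over exons 2 and 3 (coding bases 233 to 384), is shown because reads from it cannot be told apart between the 2 genes. Sequences are from GENCODE 29 transcripts, 5′ to 3′ on the minus strand, and capitals mark the 5 positions at which CST2 differs. In the genome the run spans chr20:23747858-23749125 for CST1, chr20:23685936-23687197 for CST4 and chr20:23824062-23825319 for CST2, with an intron in between.
CST1 and CST4: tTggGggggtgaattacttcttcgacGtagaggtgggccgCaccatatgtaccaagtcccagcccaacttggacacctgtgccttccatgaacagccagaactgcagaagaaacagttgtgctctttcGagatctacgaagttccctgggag
CST2: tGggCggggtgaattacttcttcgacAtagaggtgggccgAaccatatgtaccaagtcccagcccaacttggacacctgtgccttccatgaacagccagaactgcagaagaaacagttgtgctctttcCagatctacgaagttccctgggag

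Neither the read length nor the handling of reads with several matches is given in the sources used here. Of all windows of 50 bases in the CST1 transcript 27.3% also occurred in another gene's transcript, nearly always CST4, and 30.2% of those of CST4 and 8.30% of those of CST2 were shared in the same way. With windows of 100 bases the shares were 8.02% for CST1, 8.13% for CST4 and 0% for CST2, and with 150 bases 0.491%, 0.498% and 0%. The split between CST1 and CST4 is thus less certain than their sum. CST3, CST6, CSTB, CTSB and CTSZ shared no window of 50 bases or more with another gene, and CTSL shared 1.15% of its windows of 50 bases with its pseudogenes.

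Of the 10 genes 3 were called higher (CST1, CST4, CST2) and 2 lower (CTSL, CSTB) at an adjusted p under 0.05 in edgeR's quasi-likelihood fit over 14975 genes, where 31.9% of all genes were called, 16.1% higher and 15.8% lower. The median log2 fold change of the 10 was 0.08, against -0.01 over all genes tested. The groups did not overlap for 6 of the 10, 4 above and 2 below, where 44.3% of all genes did not overlap, 21.4% above and 22.9% below. The same contrast chose the genes, so nothing is read from these counts. All 10 passed the filter on low counts.

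**Figure D1:**
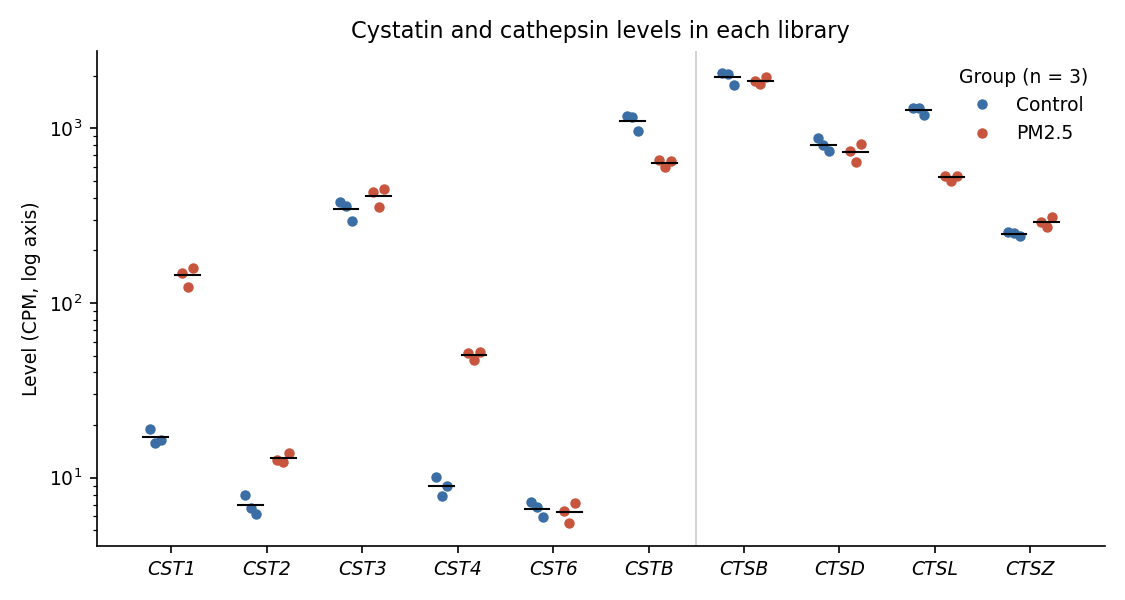
Level of each gene in each library, in CPM with TMM scaling on a log axis, with Control and PM2.5 as colours, 1 point a library and a bar at the mean of 3. CST1 moves from 15.9 to 18.9 CPM in Control up to 124 to 158 CPM in PM2.5, whereas CTSB stays between 1771 and 2065 CPM in all libraries.

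CST1, which encodes cystatin SN, a secreted inhibitor first known from saliva, was at 18.9, 15.9 and 16.5 CPM in Control replicates 1 to 3 and at 149, 124 and 158 CPM in PM2.5 replicates 1 to 3. Every PM2.5 library was far above every Control library. The fold change was 8.40, or 3.07 ± 0.12 on the log2 scale (SE, n = 3 each). That rise was the 18th largest of the 14975 genes. By its mean level CST1 moved from rank 6963 of those genes in Control to rank 1296 in PM2.5.

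CST4 encodes cystatin S, another salivary inhibitor. It stood at 10.1, 7.87 and 8.92 CPM in Control and 51.99, 47.1 and 52.1 CPM in PM2.5. The groups were again well apart, with a fold change of 5.62 (log2 2.49 ± 0.12, SE), the 61st largest rise. CST2, which encodes cystatin SA, was at 8.01, 6.67 and 6.20 CPM in Control and 12.6, 12.2 and 13.8 CPM in PM2.5. Its groups did not overlap either, but its fold change was 1.85 (log2 0.89 ± 0.15, SE), the smallest of the 3 close copies.

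Added together, CST1, CST2 and CST4 came to 33.05 ± 3.52 CPM in Control and 207 ± 21.5 CPM in PM2.5 (SD, n = 3 each). This sum does not depend on how reads are split among them, but would change if shared reads were dropped or counted more than once. The makeup of the sum differed too. CST1 took 51.1% to 52.2% of it in Control and 67.5% to 70.6% in PM2.5, and CST2 went from 19.6% to 21.9% down to 5.87% to 6.69%. CST4 held 25.9% to 28.2% in Control and 23.2% to 25.8% in PM2.5, ranges that nearly meet. These shares are taken within a library and do not depend on the scaling of libraries.

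**Figure D2:**
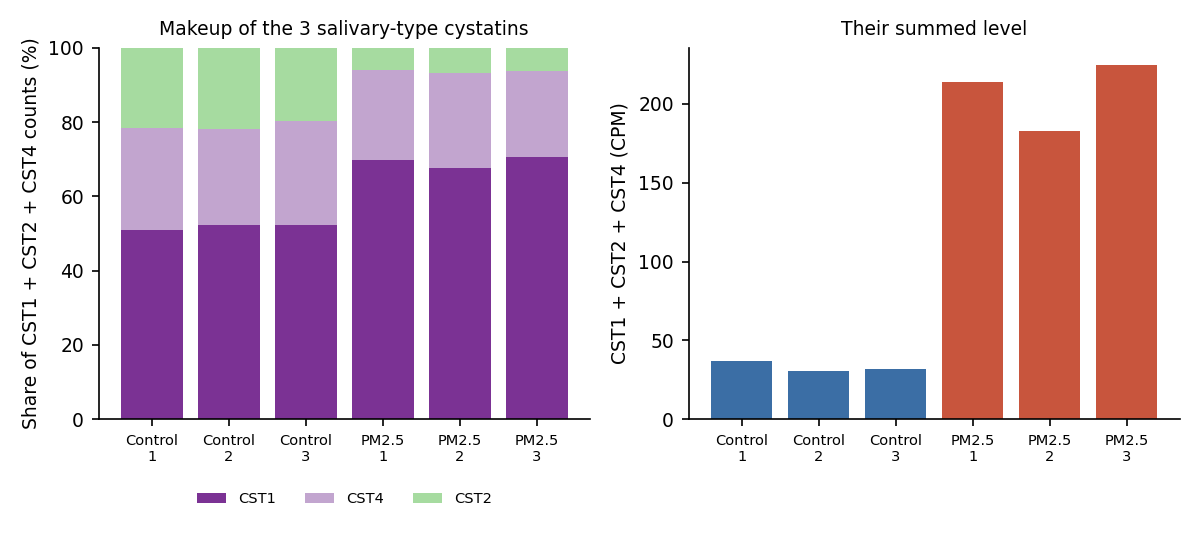
Share of CST1, CST4 and CST2 in their summed counts (left, percent) and their summed level in CPM (right), for each of the 6 libraries. The sum is 30.4 to 37.1 CPM in Control and 183 to 224 CPM in PM2.5, and the CST2 share is lower in every PM2.5 library.

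CST3 encodes cystatin C, the broadly expressed secreted inhibitor of cathepsins B, L and S. Its start site lies at -112.8 kb from that of CST1. Its levels were 378, 361 and 294 CPM in Control and 433, 354 and 449 CPM in PM2.5. The groups overlapped, because PM2.5 replicate 2 was below Control replicates 1 and 2, and the log2 difference was 0.26 ± 0.12 (SE). Of all counts of the 5 secreted cystatins CST3 made up 88.7% to 90.6% in Control and 65.3% to 66.3% in PM2.5, while CST1 made up 3.99% to 4.98% and 22.8% to 23.3%. The summed level of the 5 was 384 ± 46.9 CPM in Control and 625 ± 72.8 CPM in PM2.5 (SD, n = 3 each).

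The window of 500000 bases on either side of the span from CST3 to CST2 holds 14 protein-coding genes, 10 of them cystatins. Besides the 4 described, CST8, CST9, CST9L and CST11, and GGTLC1 beyond them, had no count in any library, where the limit of 3 counts is 0.0865 to 0.0942 CPM, and CSTL1 had 1 count and CST5 16 over all 6 libraries. CST5, the next cystatin gene after CST2, lies at 128.5 kb from CST1 and had 0 to 4 counts in every library. At the other end NXT1 and GZF1 did not pass the test, with log2 differences of 0.05 ± 0.14 and -0.18 ± 0.12 (SE), and NAPB rose by 0.39 ± 0.14 (edgeR, adjusted p = 0.0379). NAPB was called in only 1 of the 6 fits that left out a library, that without Control replicate 3 (edgeR, highest adjusted p = 0.167). The difference of several-fold size thus appeared at CST1 and CST4 and at none of the other protein-coding genes tested in the window. The rise of NAPB, of CST2 and the value of CST3 were smaller.

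**Figure D3:**
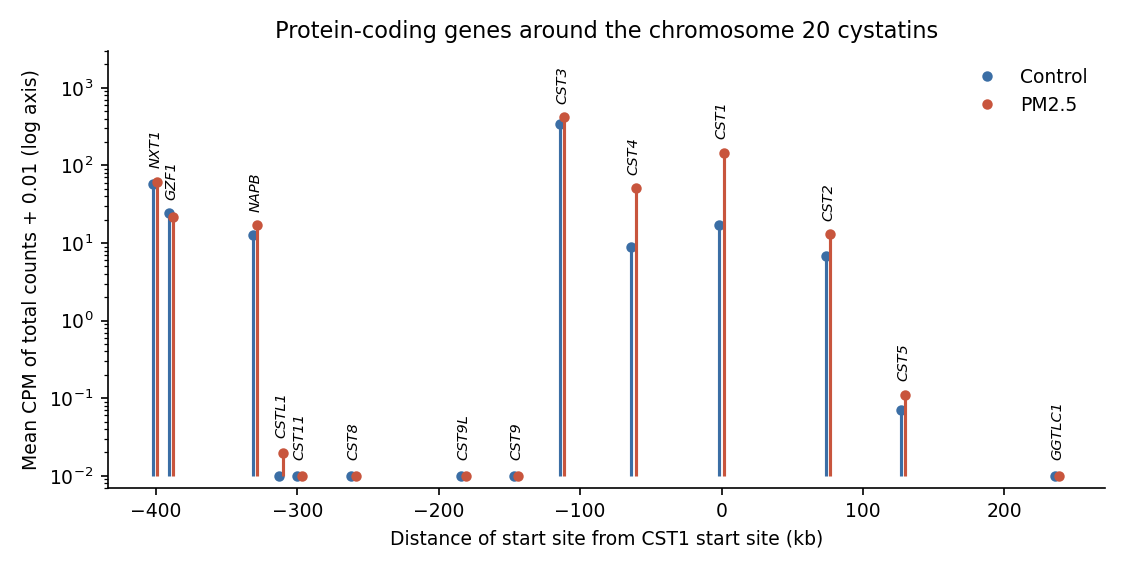
Mean level of the protein-coding genes around the chromosome 20 cystatins, in CPM of total counts plus 0.01 on a log axis, against the distance of each start site from that of CST1 in kb. CST1 and CST4 show wide gaps between Control and PM2.5, and CST8, CST9, CST9L and CST11 lie at the floor of the axis with 0 counts.

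CST6, on the plus strand of chromosome 11 at 66011841 to 66013505 (ENSG00000175315), encodes cystatin E/M, a secreted inhibitor of cathepsins L and V and of legumain. It was at 7.22, 6.79 and 5.97 CPM in Control and 6.45, 5.49 and 7.202 CPM in PM2.5. The groups overlapped fully, with a log2 difference of -0.06 ± 0.17 (SE), and its sign turned to 0.04 without PM2.5 replicate 2. CSTB, on the minus strand of chromosome 21 at 43772511 to 43776445 (ENSG00000160213), encodes cystatin B (stefin B), the inhibitor held in the cytosol and nucleus. CSTB stood at 1175, 1156 and 965 CPM in Control and 655, 604 and 648 CPM in PM2.5. All PM2.5 libraries were below all Control libraries, 1.73-fold (log2 -0.79 ± 0.10, SE). The ratio of CST3 to CSTB counts, taken within each library, was 0.305 to 0.322 in Control and 0.586 to 0.692 in PM2.5. All 6 cystatins together came to 1483 ± 163 CPM in Control and 1261 ± 99.3 CPM in PM2.5 (SD, n = 3 each), a sum in which CSTB is the largest part.

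**Figure D4:**
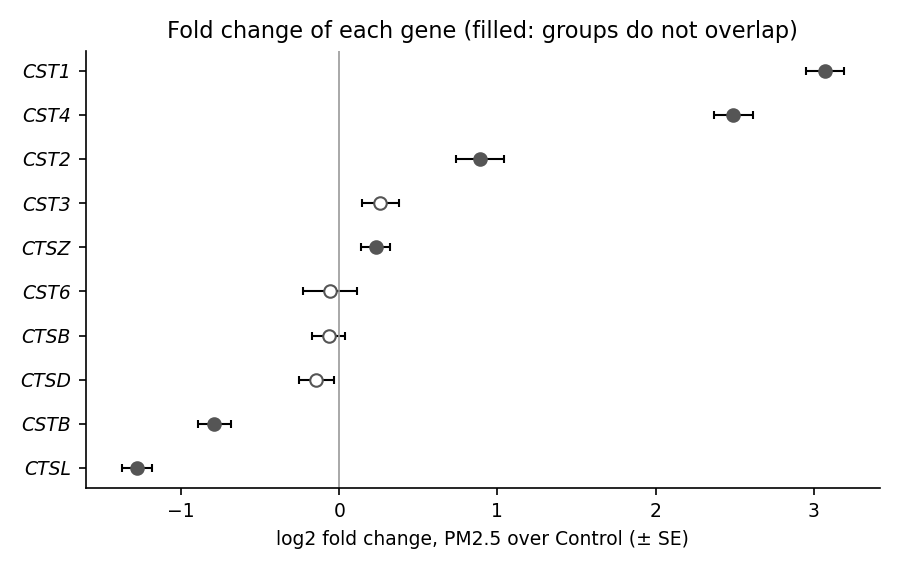
Log2 fold change of PM2.5 over Control for each gene with its standard error, from edgeR's fit over all genes; filled points mark genes whose groups do not overlap. The values run from -1.28 for CTSL to 3.07 for CST1, and CST3, CST6, CTSB and CTSD have overlapping groups.

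Among the cathepsins the difference was largest for cathepsin L, a strong endopeptidase and a main target of the cystatins. CTSL lies on the plus strand of chromosome 9 at 87725519 to 87731393 (ENSG00000135047). Its levels were 1310, 1299 and 1198 CPM in Control and 535, 501 and 533 CPM in PM2.5. Replicates were close together and the groups far apart, 2.43-fold lower in PM2.5 (log2 -1.28 ± 0.10, SE). By mean level CTSL went from rank 87 to rank 286 of the genes tested.

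CTSB, on the minus strand of chromosome 8 at 11842524 to 11869448 (ENSG00000164733), encodes cathepsin B, which cuts both inside proteins and from their carboxyl end. It was the most abundant of the 10, at 2065, 2039 and 1771 CPM in Control and 1867, 1783 and 1965 CPM in PM2.5. The groups overlapped, with a log2 difference of -0.07 ± 0.10 (SE). The ratio of CTSB to CTSL counts within a library was therefore 1.48 to 1.58 in Control and 3.49 to 3.69 in PM2.5, with no overlap.

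CTSZ, on the minus strand of chromosome 20 at 58995185 to 59007247 (ENSG00000101160), encodes cathepsin Z, a carboxypeptidase. It was at 256, 251 and 241 CPM in Control and 292, 272 and 313 CPM in PM2.5. The PM2.5 libraries were all above the Control libraries, but by only 1.17-fold (log2 0.23 ± 0.09, SE). CTSB, CTSL and CTSZ together came to 3477 ± 232 CPM in Control and 2687 ± 127 CPM in PM2.5 (SD, n = 3 each).

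CTSD, on the minus strand of chromosome 11 at 1752752 to 1764573 (ENSG00000117984), encodes cathepsin D, an aspartic protease long studied in breast cancer. Its levels were 882, 798 and 740 CPM in Control and 737, 639 and 813 CPM in PM2.5. The groups overlapped, with a log2 difference of -0.15 ± 0.11 (SE). Exons of other genes lie over 52.7% of the exonic bases of CTSD, mainly AC068580.4 on the same strand, so its level may depend on how shared reads were counted. AC068580.4 itself had only 33 to 48 counts in each library, and the antisense gene AC068580.3 323 to 396.

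RefSeq promoter windows (GRCh38.p14, the 250 bases before the start site) were read for CTSL, CTSD, CST3 and CTSZ, 4 of the 10 genes. That of CTSL, whose level differed most among the cathepsins, and that of CTSD, which has an E-box of the kind bound by TFEB, a known driver of lysosomal genes, are shown with motif matches in capitals.
CTSL, chr9:87725869-87726118, plus strand: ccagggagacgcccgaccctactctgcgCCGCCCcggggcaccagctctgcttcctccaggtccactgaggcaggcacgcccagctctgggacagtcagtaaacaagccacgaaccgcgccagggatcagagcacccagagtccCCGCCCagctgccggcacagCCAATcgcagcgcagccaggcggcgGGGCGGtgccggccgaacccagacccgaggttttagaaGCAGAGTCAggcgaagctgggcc
CTSD, chr11:1763928-1764177, minus strand: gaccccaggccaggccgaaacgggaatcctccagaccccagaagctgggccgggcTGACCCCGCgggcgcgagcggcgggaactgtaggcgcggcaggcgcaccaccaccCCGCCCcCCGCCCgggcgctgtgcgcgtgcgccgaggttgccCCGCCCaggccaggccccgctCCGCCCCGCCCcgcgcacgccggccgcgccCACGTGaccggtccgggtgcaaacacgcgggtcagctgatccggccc

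Motifs were searched on both strands, with positions counted from the RefSeq start site. This site differs from the GENCODE gene start, and the windows of CTSL, CTSD and CST3 lie within the gene spans given above. The E-box, CACGTG, occurred in 1 of the 4 windows, that of CTSD, at -47 to -42, and in 6.49% of 27305 promoter windows of this length. The antioxidant response element, TGACNNNGC, occurred in CTSL at -23 to -15, in CTSD at -195 to -187 and in CTSZ at -208 to -200, but not in CST3, and in 11.03% of all windows. GC boxes, with the letters GGGCGG, were in all 4 windows and in 42.3% of all. The CCAAT box was in the window of CTSL and in 33.04% of all. None of the 4 held the core of the CLEAR element, TCACGTGA, which contains the E-box and was in 0.890% of all windows, or the longer CLEAR element (0.330%). Neither the TATA box, with the letters TATAAA (11.1% of all), nor the AP-1 site was found. The AP-1 letters searched were TGANTCA, present in 6.60% of all windows. A match is a description of the letters only.

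Levels of different genes were compared per kilobase of each gene's GENCODE principal transcript. In Control the order was CTSB (975 ± 80.99), CTSL (884 ± 43.1), CSTB (508 ± 53.7), CST3 (394 ± 50.8), CTSD (380 ± 33.4), CTSZ (167 ± 4.99), CST1 (22.5 ± 2.10), CST4 (11.9 ± 1.51), CST2 (9.30 ± 1.25) and CST6 (8.77 ± 0.837 CPM per kb, SD, n = 3 each). Neighbours whose mean ± SD overlapped were CTSB and CTSL, CST3 and CTSD, CST4 and CST2, and CST2 and CST6. In PM2.5 CTSB remained first at 932 ± 45.4 CPM per kb, followed by CST3 (472 ± 57.9), CTSL (364 ± 13.2), CTSD (344 ± 41.02) and CSTB (294 ± 12.7), where the mean ± SD of CTSL overlapped that of CTSD and that of CTSD overlapped that of CSTB. CST1, at 189 ± 23.7 CPM per kb, came level with CTSZ at 195 ± 13.6, where it had been several-fold lower in Control. The deposited length of CSTB, 3935 bases, equals its whole span with introns, and its listed transcript is 2164 bases for 297 coding bases, so its level per kilobase may be understated. The order also depends on the length used. Per kilobase of deposited gene length, CTSL (536 CPM per kb) came before CSTB (279), CTSB (264) and CTSD (258) in Control. In PM2.5 CTSB (252), CTSD (233) and CTSL (221) were then highest. There CST1 (165) stood above CSTB (162), CTSZ (143) and CST3 (111).

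Within groups the genes often shared the order of the libraries, given here as a description, since CST1, CST2 and CST4 share reads and the genes were chosen on these libraries. PM2.5 replicate 2 was the lowest of the PM2.5 libraries for all 10 genes, whereas it was lowest for 38.5% of all tested genes. Control replicate 1 was the highest Control library for all 10, against 30.9% of all genes, and Control replicate 3 the lowest for 8 of them, against 39.4%. Scaled to total counts instead, PM2.5 replicate 2 was again lowest for 10 and Control replicate 1 highest for 9, but Control replicate 3 was lowest for 5. The TMM factors of Control replicate 3 and PM2.5 replicate 2, 1.05 and 1.03, were the largest of the 6, and their part in this order was not tested.

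The gene lists that follow were also drawn up with earlier results of these data known. Their p-values and counts are therefore not independent evidence. Of 14 other genes with a cystatin fold, 2 were tested and 12 were at or near 0. Among the 12 was CSTA (cystatin A), with 0 to 4 counts in each library. Latexin (LXN), a carboxypeptidase inhibitor built from cystatin-like domains, was at 8.82 ± 0.332 CPM in Control and 21.8 ± 2.72 CPM in PM2.5 (SD, n = 3 each). It rose 2.47-fold, with an adjusted p of 2.40e-06 (edgeR quasi-likelihood, Benjamini-Hochberg). CST7, which encodes the lysosomal inhibitor cystatin F and lies further along chromosome 20, fell by 0.58 ± 0.11 on the log2 scale, to 19.5 ± 0.962 from 29.2 ± 2.35 CPM, with an adjusted p of 0.001004 in the same edgeR fit. CST7 was thus lower where the secreted CST1 and CST4 were higher.

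Of 15 tested cathepsins and lysosomal peptidases outside the 10 genes, 4 rose and 1 fell (median log2 fold change -0.10), where 16.1% and 15.8% of all genes did. Cathepsin C (CTSC), which activates granule proteases, rose 1.67-fold, to 132 ± 4.92 from 78.9 ± 2.57 CPM (SD, n = 3 each). Cathepsin V (CTSV), the closest relative of cathepsin L, was at 2.09, 3.12 and 2.52 CPM in Control and 5.65, 5.91 and 4.23 CPM in PM2.5, a 2.04-fold rise (edgeR, adjusted p = 0.00214) opposite in direction to CTSL. At its highest CTSV remained under 6 CPM, so it was a small part of the cathepsin messages. CTSW rose 2.21-fold to 9.51 ± 2.60 CPM and the carboxypeptidase PRCP 1.34-fold, while the dipeptidyl peptidase DPP7 fell 1.58-fold. The protective protein cathepsin A (CTSA) and legumain (LGMN), which processes cathepsin precursors, did not pass the test, with log2 differences of -0.10 ± 0.09 each (SE).

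Of 15 genes for sorting and processing of cathepsin precursors, 1 rose and 4 fell (median -0.09), where 16.1% and 15.8% of all genes did. The cation-dependent mannose 6-phosphate receptor M6PR, which carries cathepsin precursors to endosomes, fell 1.35-fold, to 82.5 ± 1.73 from 112 ± 0.958 CPM (edgeR, adjusted p = 0.00125). Exons of PHC1 lie over 29.3% of its exonic bases. The other mannose 6-phosphate receptor, IGF2R, was more abundant and was not called (log2 0.05 ± 0.14, SE, edgeR, adjusted p = 0.803). IGF2R averaged 183 CPM in Control, where libraries ran from 151 to 240 CPM, and 190 CPM in PM2.5. Sortilin (SORT1), an alternative sorting receptor, rose 1.70-fold, to 130.0 ± 2.96 from 76.4 ± 2.99 CPM (edgeR, adjusted p = 8.32e-06). Prosaposin (PSAP) and the adaptor GGA3 fell by 0.35 ± 0.11 and 0.29 ± 0.10 on the log2 scale, but PSAP was not called without Control replicate 1 or 2 or PM2.5 replicate 1 or 2, nor GGA3 without Control replicate 2 or 3 or PM2.5 replicate 1 or 2, and neither was called with the replicate block (adjusted p = 0.0593 and 0.0523 by edgeR). The highest adjusted p of the alternatives was 0.134 for PSAP and 0.198 for GGA3 in edgeR's test, and the list had only 1 fall without Control replicate 2 or PM2.5 replicate 1, and 2 without Control replicate 1 or 3 or PM2.5 replicate 2.

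Of 15 tested regulators of lysosomal gene transcription 6 fell and none rose (median -0.25), where 15.8% of all genes fell and 16.1% rose. The transcription factor TFEB had 16.1 ± 1.65 CPM in Control and 14.1 ± 0.587 CPM in PM2.5 (SD, n = 3 each) and was not called. TFE3, a factor of the same list, was far more abundant, at 302 ± 33.0 CPM in Control and 347 ± 21.9 CPM in PM2.5. Its PM2.5 libraries were all above its Control libraries, but it was not called either (edgeR, adjusted p = 0.151). The folliculin partner FNIP2 fell 2.46-fold, to 6.995 ± 1.12 from 17.2 ± 1.28 CPM (edgeR, adjusted p = 9.37e-06). So did the Ragulator subunit LAMTOR1 1.68-fold, the GTPase RRAGD 1.56-fold and the calcium channel MCOLN1 1.39-fold. The other 2 called lower were MTOR and RPTOR, subunits of the kinase complex that holds TFEB in the cytoplasm, by 0.34 and 0.35 on the log2 scale. RRAGD and MCOLN1 are themselves known TFEB targets. Without PM2.5 replicate 1 the number of falls was 3, and MCOLN1 was not called without Control replicate 1 or PM2.5 replicate 1 (edgeR, highest adjusted p = 0.125). MTOR was not called without Control replicate 3 or PM2.5 replicate 1 or 3 or with the replicate block (edgeR, highest adjusted p = 0.117), nor RPTOR without Control replicate 1 or PM2.5 replicate 1 or 2 (edgeR, highest adjusted p = 0.0981).

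Of 6 tested inhibitors of cathepsins outside the cystatin family 2 rose and 1 fell (median 0.17), where 16.1% and 15.8% of all genes did. SERPINB1, an inhibitor of neutrophil-type serine proteases including cathepsin G, rose 1.53-fold from 72.6 ± 7.95 to 111 ± 5.76 CPM, and CD74, the invariant chain, of which one splice form binds cathepsin L, rose 1.46-fold from 284 ± 42.2 to 415 ± 49.4 CPM. Testican 1 (SPOCK1) fell 1.44-fold from 55.1 ± 2.92 to 38.1 ± 3.58 CPM. CTSG, the protease that SERPINB1 inhibits, had no count in any library.

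Of 26 other lysosomal hydrolases 2 rose and 5 fell (median -0.10), where 16.1% and 15.8% of all genes did. Without Control replicate 3 the falls numbered 8, and without PM2.5 replicate 1 or 2 only 3. The sialidase NEU1, which needs CTSA for its stability, fell 1.81-fold, to 97.9 ± 5.48 from 177 ± 24.8 CPM (edgeR, adjusted p = 1.99e-05). Acid ceramidase (ASAH1) and NAGLU fell 1.49-fold and 1.42-fold, and beta-glucuronidase (GUSB) rose 1.39-fold. Most hydrolases, 19 of 26, did not pass the test, and none of the called ones moved as far as the 2.43-fold of CTSL.

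**Figure D5:**
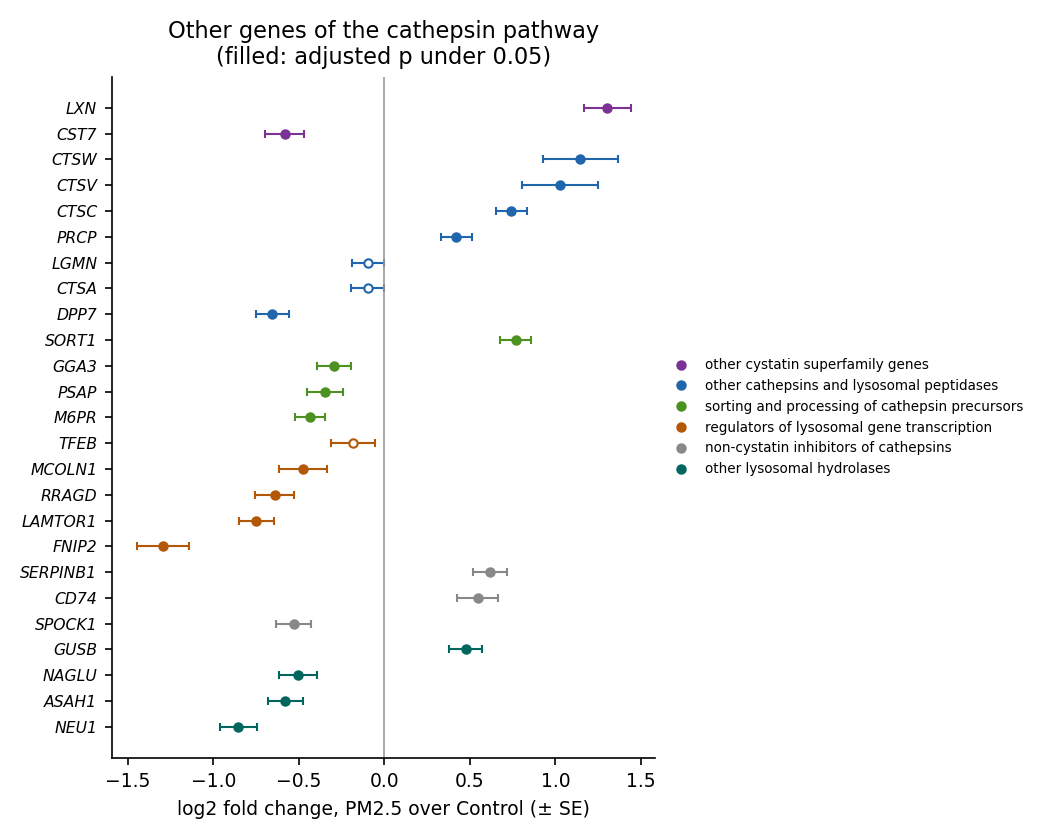
Log2 fold change of PM2.5 over Control with its standard error, from edgeR's fit over all genes. Shown are the tested genes of each list that were named by rule, coloured by list. Filled points have an adjusted p under 0.05. LXN, CTSW and CTSV lie to the right, FNIP2 lies farthest to the left, and CTSA, LGMN and TFEB are open.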

How the data were processed

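RNA sequencing of 6 MDA-MB-231 libraries (3 Control, 3 PM2.5) was analysed from 1 table of raw counts per gene that the authors deposited. GRCh38 was the build, per the submitters' processing notes, with aligner, counter, strand setting and read length each not given in the sources used here. Gene lengths stand beside the counts per the file headers, and all 58735 genes matched GENCODE 29 in position. Columns were assigned to libraries by title. Genes were kept by filterByExpr (minimum count 10, total 15), leaving 14975, and tested with edgeR 4.0.16 in R 4.3.3 (TMM scaling, quasi-likelihood test, two-sided, group as the only term, Benjamini-Hochberg over all genes). CPM use TMM factors (0.962 to 1.047), and each SE was taken as the absolute log2 fold change over the root of its F statistic. Floors of 3 counts cover counting error only. Alternatives were RLE size factors, no filter, a stricter filter (1 CPM), DESeq2 1.42.0, a replicate block and leaving out each library. On simulated counts for PM2.5 against Control (14975 genes) the fit recovered 35.8% of 1.5-fold changes, 71.6% of 2-fold and 93.9% of 4-fold changes. A far smaller share of genes was changed in the simulation than the 31.9% called in the data. These recoveries therefore need not hold for the real contrast. The 10 genes and the pathway lists were chosen with earlier results of these data known. From each list, up to 4 called genes with the smallest p were named, with CTSV, CTSC, CTSA, CSTA, LGMN, TFEB and M6PR in any case. NAPB, NXT1 and GZF1, the other genes of the chromosome 20 window, CTSG, MTOR, RPTOR, TFE3 and IGF2R were named after their values were seen. So were single marker genes and the label check genes HMOX1 and CYP1A1. One sequence stretch and 1 marker gene are not reported here.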

Additional observations from a re-analysis of the deposited data

How the results depend on the processing

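For the 10 genes 132 values were taken under the 11 alternatives (their fold changes and both counts of calls). All fold changes stayed within the spread between replicates, and all counts within 1.5 times. The alternatives draw on the same 6 libraries, so the fold changes could hardly leave that spread, and nothing is concluded from it. The values ranged from 2.99 to 3.17 for CST1, 2.40 to 2.58 for CST4, 0.81 to 0.9994 for CST2, -0.88 to -0.74 for CSTB and -1.32 to -1.25 for CTSL. The number called higher was 4 with the stricter filter and with DESeq2, which added CTSZ, and without PM2.5 replicate 2, which added CST3. Of 275 values of the list genes named by rule 263 kept their direction and call and 12 kept their direction only, all of them PSAP, GGA3 or MCOLN1. Of 65 values of MTOR, RPTOR, NAPB, CAV1, EGFR and ITGAM, which were named after their values were seen, 45 kept direction and call and 20 direction only, none of them CAV1 or EGFR. NAPB was not called with no filter or with the replicate block (adjusted p = 0.0527 and 0.0676 by edgeR). Leaving out 1 library each, the genes called lower over all genes ran from 1448 to 2680, falls among sorting genes from 1 to 3 and rises from 1 to 2, falls among the other peptidases from 1 to 2, falls among regulators from 3 to 6, and among hydrolases falls from 3 to 8 and rises from 1 to 2. Rises among sorting genes numbered 2 with the stricter filter and 2 with DESeq2. With the replicate block, falls among sorting genes numbered 1; the block called 1951 genes higher and 1826 lower. The labels do not say whether library numbers pair the samples. Deviations of same-numbered libraries correlated at 0.04, -0.04 and -0.22, and those of differently numbered ones at -0.32 to 0.28. With 3 libraries a group such values cannot show whether samples were paired. The cause of these shifts was not tested.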
